A study of Mus musculus with 12 samples.

Results

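The regions described here are 1785 H3K27ac regions of control mouse cardiomyocytes that appeared as a single stretch in the control list and as 2 or more separate stretches in the list of RIP140-deficient cardiomyocytes. They were chosen by overlap of the lists: a control region on chromosomes 1 to 19 or X, under 10000 bp wide, that shared at least 1 bp with 2 or more knockout (KO) regions, all of them under 10000 bp. These were 1785 of 52086 control regions under that width (3.43%, 95% Wilson interval 3.27 to 3.59). The stretch between neighbouring KO regions inside one control region is called a gap, and the parts of the KO regions that lie inside the control region are called retained pieces.

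H3K27ac was mapped by CUT&RUN in cardiomyocytes isolated from hearts of male mice aged 10 to 12 weeks, with 200000 cells per experiment. Control mice were Nrip1 f/f Cre- and KO mice were their Nrip1 f/f Cre+ littermates (csNrip1-/-), so both carried the floxed Nrip1 alleles and the genotypes differed in a Cre driven by the Nkx2.5 promoter. That promoter is active in the embryonic heart, and a difference in adult cells therefore includes whatever followed the loss during development. Each genotype had 3 H3K27ac libraries and 3 IgG libraries, and the authors deposited 1 list of regions per genotype, made of those found in at least 2 of 3 replicates. No signal, depth or value per replicate comes with the lists, so spread between replicates is unknown, no test between genotypes was possible, and the intervals below cover counting error only.

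H3K27ac, acetylation of lysine 27 of histone H3, marks nucleosomes at active promoters and enhancers and is laid down mainly by the acetyltransferases p300 and CBP. CUT&RUN releases DNA next to an antibody-bound mark by a tethered nuclease, and a caller of broad marks joins neighbouring enriched windows into regions, so a dip within an enhancer can leave either one long region or several short ones. RIP140, the product of Nrip1, is a nuclear receptor corepressor that recruits histone deacetylases and restrains genes of fatty acid and mitochondrial metabolism. Among the factors it meets are the estrogen-related receptors (ERRs), while MEF2 and GATA4 are DNA-binding factors of heart muscle enhancers.

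As a check of the genotype, the coding sequence of Nrip1 (chr16:76291185-76294667, 3483 bp, GRCm38) lay in control regions over 2556 bp and in KO regions over 0 bp. The control region there was 14439 bp wide and therefore outside the width limit.

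The following stretches of the genome (GRCm38, plus strand) are examples of sequence in gaps and in retained pieces. First come 3 whole gaps that were short enough to print, all intronic or intergenic and free of annotated exons, with the gap in capitals and 20 retained bases on either side in lower case. They lay at chr1:135846159-135846388 in an intron of Tnnt2 (cardiac troponin T), at chr7:80128049-80128194 in intergenic sequence near Idh2 (mitochondrial isocitrate dehydrogenase), and at chr12:99280581-99280676 in an intron of Foxn3 (a forkhead repressor). The gap in Tnnt2 was 190 bp long with 53.7% GC, that near Idh2 106 bp with 44.3% GC, and that in Foxn3 56 bp with 50% GC.
Tnnt2 gap: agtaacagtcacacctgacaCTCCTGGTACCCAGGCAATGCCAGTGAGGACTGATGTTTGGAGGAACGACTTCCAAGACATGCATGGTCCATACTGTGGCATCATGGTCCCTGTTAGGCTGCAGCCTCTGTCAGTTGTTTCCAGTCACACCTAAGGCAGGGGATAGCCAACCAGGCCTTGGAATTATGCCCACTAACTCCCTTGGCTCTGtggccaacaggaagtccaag
Idh2 gap: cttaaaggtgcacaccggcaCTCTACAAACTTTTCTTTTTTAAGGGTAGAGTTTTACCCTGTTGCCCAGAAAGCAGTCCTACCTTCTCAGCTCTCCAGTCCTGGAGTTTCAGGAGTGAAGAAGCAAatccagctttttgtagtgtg
Foxn3 gap: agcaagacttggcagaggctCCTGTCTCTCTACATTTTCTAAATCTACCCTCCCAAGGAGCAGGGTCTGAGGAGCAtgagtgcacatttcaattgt

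A second set holds matches to the MEF2 consensus, capitals marking the match, in retained pieces of 3 regions at sarcomere genes. They lay at chr2:76982684-76982733 (Ttn, titin, the molecular spring of the sarcomere), chr3:123018963-123019012 (Myoz2, a calcineurin-binding protein of the Z-disc) and chr9:120021393-120021442 (Xirp1, an actin-binding protein of the intercalated disc). All 3 were picked from retained pieces, so their lying in KO regions follows from the choice. Retained MEF2 matches were also found at other genes, among them Plcb4 and Trpc1.
Ttn retained: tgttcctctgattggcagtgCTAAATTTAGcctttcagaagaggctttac
Myoz2 retained: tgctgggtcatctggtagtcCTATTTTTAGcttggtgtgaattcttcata
Xirp1 retained: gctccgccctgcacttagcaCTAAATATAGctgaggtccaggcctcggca

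The next set holds matches to the ERR consensus TCAAGGTCA, searched on both strands. Matches in gaps were found at chr12:33077686-33077734, in an intron of Cdhr3 (a cadherin-related adhesion protein), and at chr8:103701603-103701651, in intergenic sequence 400991 bp from the start site of Cdh5 (VE-cadherin of endothelial junctions). Matches in retained pieces are shown at chr7:80134199-80134247 (Idh2) and chr6:95704777-95704825 (Suclg2, a subunit of succinyl-CoA ligase). These are examples only and do not show which kinds of genes kept or lost matches. Retained matches were also found at other genes, among them Gja1, Foxn3 and Plcb4. All gaps together held 38 matches and all retained pieces 277. The reverse complement of the consensus is what reads on the plus strand at Cdhr3 and Suclg2.
Cdhr3 gap: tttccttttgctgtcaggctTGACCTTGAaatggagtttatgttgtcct
Cdh5 gap: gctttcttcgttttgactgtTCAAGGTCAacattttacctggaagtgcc
Idh2 retained: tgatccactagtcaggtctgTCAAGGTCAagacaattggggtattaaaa
Suclg2 retained: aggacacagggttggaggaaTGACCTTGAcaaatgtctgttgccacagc

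Last are the 100 bases before the start site of a transcript of Rarg (retinoic acid receptor gamma) and of Nek6 (a mitotic kinase), each of which fell in a gap, given 5′ to 3′ on the gene's strand with CpG in capitals. The Rarg stretch is chr15:102243590-102243689 on the minus strand and held 3 CpG, and the Nek6 stretch is chr2:38514481-38514580 on the plus strand and held 1.
Rarg start: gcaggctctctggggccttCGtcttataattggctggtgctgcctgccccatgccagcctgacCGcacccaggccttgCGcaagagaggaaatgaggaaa
Nek6 start: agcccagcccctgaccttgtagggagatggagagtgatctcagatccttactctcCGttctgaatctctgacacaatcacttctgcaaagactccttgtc

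What was lost was a narrow strip in a wide region. Of the 1785 control regions, 1713 met 2 KO regions, 69 met 3 and 3 met 4, which left 1860 gaps with 1559942 bp in all. The gap bp per region ranged from 4 to 4576 with a median of 717 (95% interval of the median 694 to 740), and the gaps took a median of 14.9% of a region whose median width was 5474 bp (919 to 9990). Retained pieces covered a median of 78.7% of the region, and the bp lost at the outer ends had a median of 40. Gap centres lay across the whole region with a median relative position of 0.49, where 0 and 1 are its ends.

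Gap lengths gathered just above 500 bp. Between 500 and 600 bp lay 371 gaps (19.9%), against 104 gaps (5.59%) between 400 and 500 bp. In all, 1411 of 1860 gaps (75.9%) were shorter than 1000 bp and 1787 (96.1%) shorter than 2000 bp. The shortest KO region among the pieces was 502 bp long. Gaps of the opposite comparison, KO regions that met 2 or more control regions, had the same shape, with 610 of 3200 (19.1%) between 500 and 600 bp and 205 (6.41%) between 400 and 500 bp.

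**Figure D1:**
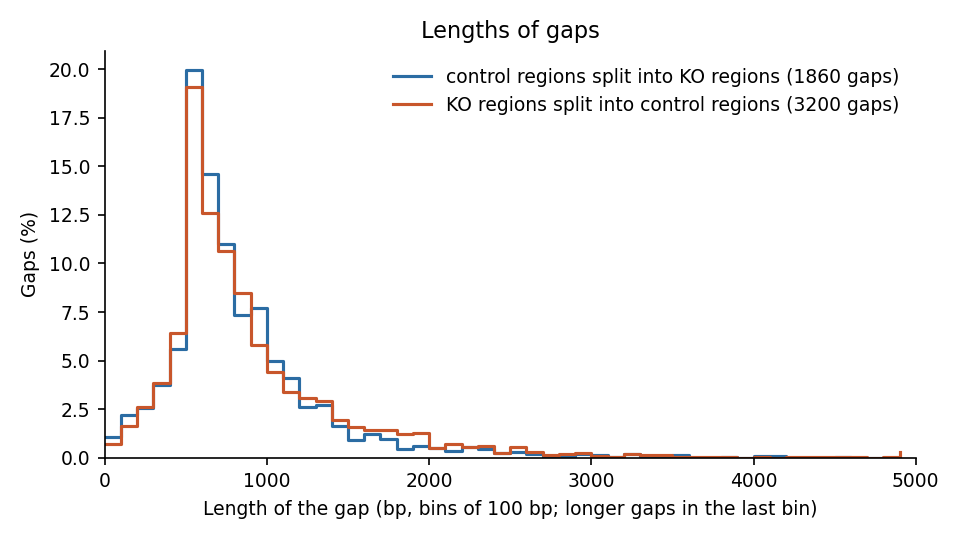
Length of gaps in bp (x axis, bins of 100 bp, gaps longer than the axis in the last bin) against the percent of gaps (y axis), for the 1860 gaps in split control regions and the 3200 gaps in split KO regions. Both lines jump at 500 bp, to 19.9% and 19.1% of gaps, and fall off above 1000 bp.

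The opposite comparison gave more regions, not fewer. Of 43501 KO regions under 10000 bp, 2973 were split into several control regions (6.83%, 6.60 to 7.08), with 3200 gaps and 2920462 bp in them. With the control list cut to the widest regions so that both lists held 45517, the counts were 1785 and 2441. The control list was the longer, with 53750 regions on these chromosomes against 45517. No replicate value tells how large a difference between 2 lists of one genotype would be, so 3.43% and 6.83% are given side by side without a test.

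The share of regions that were split climbed with their width. It was 0.0272% (3 of 11016) for control regions under 1000 bp, 5.24% between 3000 and 4000 bp, 13.7% between 5000 and 6000 bp and 28.5% (134 of 470) between 9000 and 10000 bp. In every width bin the share of KO regions split by control regions was higher, from 0.0921% to 42.8%. Width was used by the rule only as a limit: the widest members measured 9974, 9988 and 9990 bp, and control regions with several KO regions that just missed it measured 10000, 10001 and 10004 bp. Another 227 control regions under the limit were left out because a KO region they overlapped was too wide. The smallest overlap that made a member was 3 bp, and 89 members owed a piece to fewer than 100 bp, while 94 ends of control regions with 1 KO region had a further KO region within 100 bp.

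**Figure D2:**
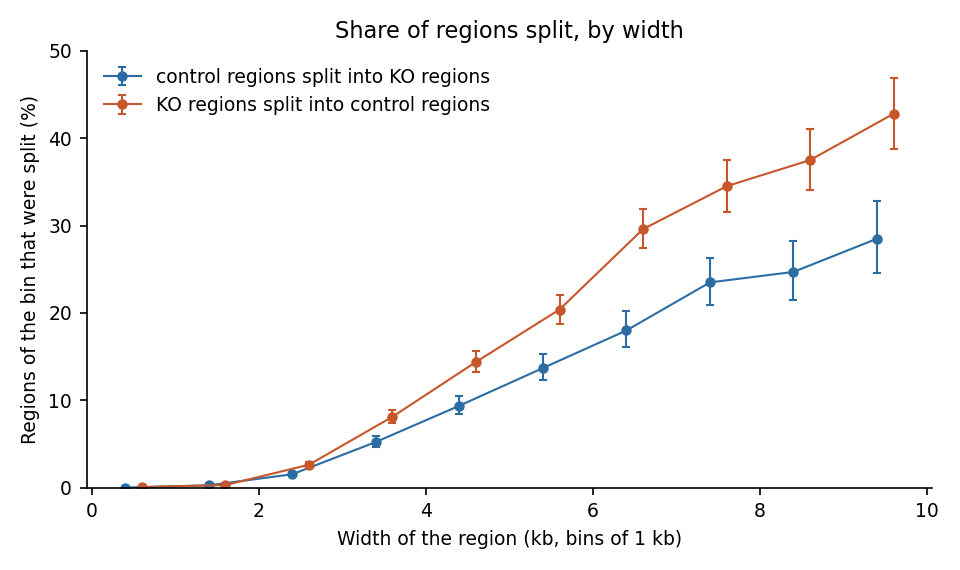
Width of the region in kb (x axis, bins of 1 kb) against the percent of regions in the bin that were split (y axis), with 95% Wilson intervals as bars, for control regions split into KO regions and KO regions split into control regions. The control share rises from 0.0272% to 28.5% and the KO share from 0.0921% to 42.8%.

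Many of these loci did not have less H3K27ac territory in KO cells, because the pieces reached beyond the control region. Pieces extended outside it by a median of 1392 bp, and in 823 regions (46.1%) past both ends. The summed width of the KO pieces exceeded the control width in 1004 of 1785 regions (56.2%, 53.9 to 58.5), and the median log2 ratio of summed KO width to control width was 0.09 (0.05 to 0.13). This rests on regions whose pieces also covered a neighbouring control region, of which there were 661 (37.0%). Among the 1124 regions whose pieces met no other control region the median log2 ratio was -0.16 (a log2 ratio below 0 means less covered length in KO), and where at least 50% of each piece lay inside the region it was -0.19. In 209 regions (11.7%) all pieces lay inside. Bp called lost at a region below are the bp in its gaps, and the KO pieces there can still sum to more than the control width.

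Region names bear on whether single control replicates were divided there too. Each region's name ends in a number that was read as how many regions of single replicates were merged into it (subpeaks), a reading that the file does not spell out. On that reading, 4 or more from 3 replicates means that at least 1 replicate held several regions there. Among the split regions 439 had 2 subpeaks, 622 had 3 and 724 (40.6%, 38.3 to 42.9) had 4 or more. Among control regions that met exactly 1 KO region 10.1% had 4 or more, and 39.6% after reweighting to the widths of the split regions, a value within the interval of the split regions. After both lists had been thinned to regions of at least 3 subpeaks, 269 control regions and 337 KO regions were split.

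Members were spread over the genome much as the regions were. The share of regions split ranged from 2.77% on chromosome 11 to 4.06% on chromosome 3 among the autosomes, and on the X chromosome it was 1.5% (15 of 1000, 0.911 to 2.46). Of the gap centres, 1299 of 1860 (69.8%) lay in introns, 422 (22.7%) between genes, 103 (5.54%) in exons and 36 (1.94%) in promoters, a promoter being 1000 bp before to 100 bp after the start site of a protein-coding gene. The median distance of a gap centre to the nearest such start site was 21570 bp.

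Start sites of protein-coding genes were kept much more often than they were lost. Gaps held 28 annotated start sites, 17.9 per Mb (exact Poisson interval 11.9 to 25.9), and retained pieces 872, 112 per Mb (105 to 120), a ratio of 0.16 (0.11 to 0.232). Each distinct transcript start was counted, so a gene can give several, and the intervals treat them as independent. A start site lay in a gap in 20 of 1785 regions (1.12%) and in a retained piece in 343 (19.2%). The outer ends that were lost held 14.5 per Mb. The central 20% of control regions that met exactly 1 KO region, reweighted to the same widths, held 155 per Mb. Around the gap centre the density was 25.8 and 16.1 per Mb in the 500 bp on either side, and it reached 101 per Mb at 1500 to 2000 bp towards lower coordinates. Position was part of the rule, since a gap cannot lie at the end of a region. The rule also fixed that retained pieces were called in both lists and gaps in the control list only. Start sites and motifs were not used, but the part of this selection in their ratios, here and below, was not tested.

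The same deficit was smaller in KO regions split by control regions. Their gaps held 53.4 start sites per Mb (45.4 to 62.5) and their retained pieces 137 per Mb, a ratio of 0.39 (0.331 to 0.459). A start site lay in a gap in 105 of 2973 such regions (3.53%, 2.93 to 4.26), against 1.12% (0.726 to 1.72) of the split control regions. The intervals of these shares do not overlap, but they cover counting error only and nearby regions are not independent, so the difference was not tested.

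**Figure D3:**
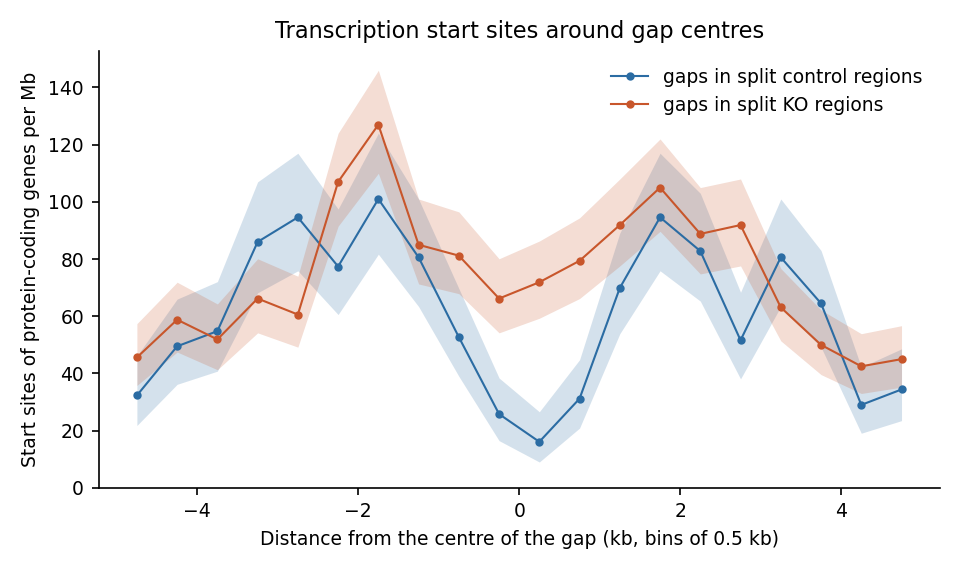
Distance from the centre of the gap in kb (x axis, bins of 0.5 kb) against annotated start sites of protein-coding genes per Mb (y axis), with exact 95% Poisson intervals as bands, for gaps in split control regions and in split KO regions. In the control regions the density dips to 16.1 per Mb beside the gap centre and rises to 101 per Mb, and in the KO regions the dip stops at 66.2 per Mb.

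Promoters touched a gap in 67 of the split control regions (3.75%, 2.97 to 4.74) and a retained piece in 359 (20.1%). Retained pieces were longer, with 7766778 bp in all against 1559942 bp in gaps, and these shares do not allow for length. The centre of the whole region lay in a promoter in 63 (3.53%), against 12.6% of control regions that met 1 KO region and 8.34% of those after reweighting by width. At Rarg the 7042 bp region broke into 3 pieces with 2941 bp in gaps, and at Nek6 the 6140 bp region lost 2656 bp. The longest loss among regions with a gap touched by a promoter was 3225 bp of a 9958 bp region at Gabpb1. This gene encodes the beta subunit of GA-binding protein, an activator of mitochondrial genes. At Gabpb1 and the genes listed next, a promoter touched a gap, but no start site of a protein-coding gene lay in a gap. Others in this set were Lpin3 (a phosphatidate phosphatase of triglyceride synthesis) with 1843 bp, Gba2 (a glucosylceramidase outside lysosomes) with 1770 bp, Rere (a transcriptional corepressor) with 1509 bp, Pcf11 (a factor of transcript 3′ end formation) with 1490 bp, Atp6v1d (a subunit of the vacuolar proton pump) with 1383 bp and Plekha2 with 1314 bp.

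Gaps differed from the retained sequence around them in composition, which the rule did not use, by little. GC was 43.9% in gaps and 44.8% in retained pieces, with a median difference within regions of -0.49 percentage points (-0.775 to -0.240) and a lower value in the gap in 979 of 1785 regions (54.8%). The ratio of observed to expected CpG was 0.205 in gaps and 0.262 in retained pieces. Repeat-masked bases made up 24.6% of gaps and 19.9% of retained pieces, and exons 5.65% and 6.90%. Reads of 40 bp align less often in repeats, and the part of this in the gaps was not tested. KO regions split by control regions showed the same order, with 24.9% and 19.8% repeat-masked.

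MEF2 matches were the motif that differed most between gaps and retained pieces among those with matches in both. Consensus sequences for 6 motifs of factors named by the study were searched on both strands, and MEF2 had 20 matches in gaps, 12.8 per Mb (7.83 to 19.8), against 320 in retained pieces, 41.2 per Mb (36.8 to 46.0). The ratio was 0.311 (0.199 to 0.487), and it was 0.303 (0.184 to 0.50) when only sequence outside repeats was counted. The centres of unsplit control regions, reweighted by width, held 44.0 per Mb. By interval, 20 of 1860 gaps (1.08%) held a match, as did 3.46% of windows of 700 bp, the median length of a gap, at the centres of all control regions at least that wide. In KO regions split by control regions the deficit was of the same sign, with 18.5 against 38.6 per Mb and a ratio of 0.479 (0.362 to 0.634), so it was not particular to the loss in KO cells.

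ERR matches numbered 38 in gaps (24.4 per Mb, 17.2 to 33.4) and 277 in retained pieces (35.7 per Mb, 31.6 to 40.1), a ratio of 0.683 (0.487 to 0.957). Outside repeats the ratio was 0.670 with an interval that reaches 1 (0.422 to 1.06). With both lists thinned to regions of at least 3 subpeaks it was 1.45, with an interval that includes 1 (0.807 to 2.61). That thinning also removed KO regions with 2 subpeaks, which can lie in the gaps it left. The direction for ERR thus did not hold in every setting. A match lay in 1.94% of gaps and in 2.33% of the central windows of 700 bp. In KO regions split by control regions the ratio was 0.680 (0.533 to 0.867). Matches to the thyroid hormone receptor half-site (ratio 0.848, 0.702 to 1.02), to GATA4 (0.950, 0.827 to 1.09) and to the glucocorticoid receptor element (0.968, 0.550 to 1.70) had intervals that include 1. They were held by 6.24%, 11.5% and 0.753% of gaps and by 7.04%, 10.3% and 0.704% of the central windows. The PPAR element had 0 matches in gaps, which allows up to 2.36 per Mb, and 5 in retained pieces, and was held by 0.0515% of the central windows.

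**Figure D4:**
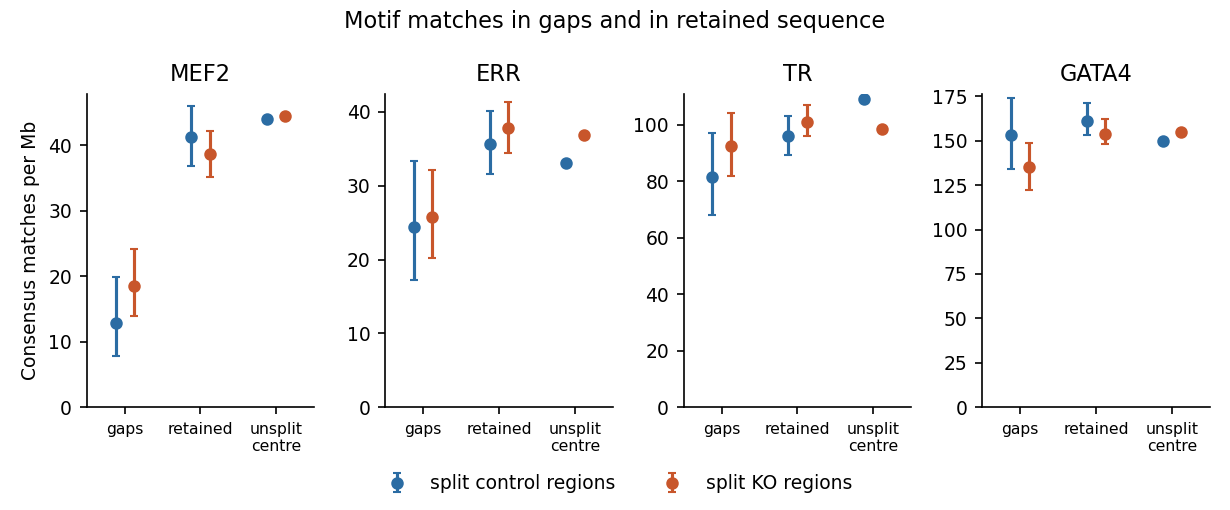
Consensus matches per Mb (y axis, one panel per motif) in gaps, in retained pieces and in the central 20% of regions that met exactly 1 region of the other list reweighted by width (x axis), for split control and split KO regions. Bars are exact 95% Poisson intervals and the reweighted points have none. MEF2 has 12.8 matches per Mb in control gaps and 41.2 in retained pieces, while GATA4 has 153 and 161.

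The largest losses lay in introns or between genes, as did most gaps of all members (69.8% of gap centres in introns and 22.7% between genes). The region with most bp in a gap, on chromosome 12 in an intron of Cdhr3, was 9294 bp wide and kept KO pieces of 1531 and 2074 bp with 4576 bp between them. Near Max, the dimer partner of MYC, 4189 of 8327 bp were lost. Near Gja1, which encodes connexin 43, the main gap junction protein of ventricular muscle, a 9727 bp region 223282 bp from the start site lost 4153 bp. In an intron of Iqsec1 (an exchange factor for ARF GTPases) 4093 of 6275 bp were lost (65.2%). A region 121226 bp from the start site of Cd83, a surface protein of immune cells, lost 4052 of 7545 bp (53.7%). An intronic region of Trpc1, a cation channel subunit, lost 3848 of 9570 bp. Its KO regions were 8079 and 906 bp wide, of which 4718 and 906 bp lay inside the control region. The remaining regions of the 10 lost 3348 to 3545 bp, nearest to Diaph3 (a formin), Svil (supervillin, an actin-binding protein), Tnip3 and Nav2. Of the 10, those at Cdhr3, Tnip3 and Nav2 met no other control region and had a summed KO width under the control width by over 0.5 on the log2 scale, with -1.37, -0.52 and -0.74.

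**Figure D5:**
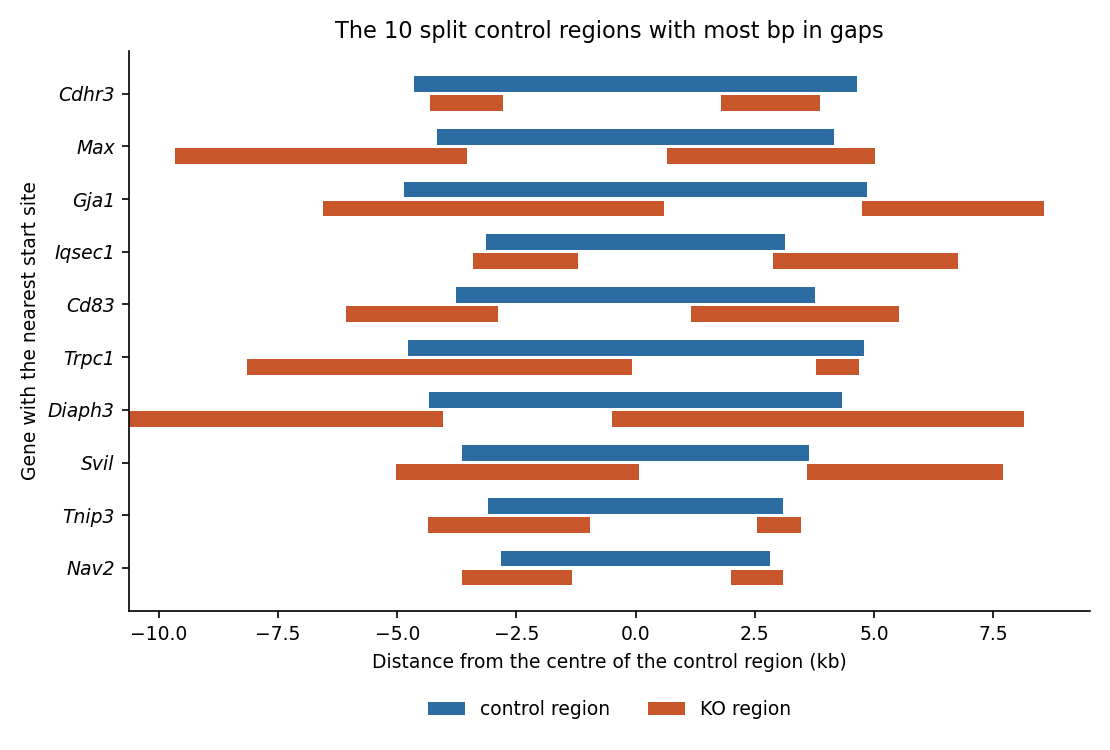
The 10 split control regions with most bp in gaps, named by the gene with the nearest start site (y axis), drawn by distance from the centre of the control region in kb (x axis), with the control region above and the KO regions below. Gaps run from 3348 bp at Nav2 to 4576 bp at Cdhr3, and KO regions reach past both ends of the control region except at Cdhr3 and Trpc1.

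Most of the regions that broke into most pieces were intronic too, as were 1221 of all 1785 split regions (68.4%). At Foxn3 a 9489 bp region became 4 KO regions of 921 to 1548 bp with 3153 bp in gaps. In Pard3b, which encodes a polarity protein, 4 KO regions had 2705 bp of gaps among them in a control region of 7865 bp. In Mbnl2, a muscleblind splicing regulator, the 4 KO regions had 2214 bp of gaps in 9679 bp. Those with 3 pieces and most gap bp were nearest to Rarg, March6 (a ubiquitin ligase of the endoplasmic reticulum), Arl5b (a small GTPase), Tnik, Rad51b (a recombination factor), Bod1 and Vash1 (vasohibin), with 2529 to 2941 bp in gaps.

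Each region was assigned to the protein-coding gene with the nearest start site, which says nothing of which gene it acts on. Of 13006 genes with a control region under 10000 bp assigned, 1375 (10.6%) had a split one. Most, 1096, had 1 split region, 194 had 2 and 85 had 3 or more. Plcb4, a phospholipase C of the Gq pathway, had 8 split regions of 66, with 335 to 1619 bp in gaps. Tbl1xr1, a subunit of the NCoR corepressor complex, had 7 of 73 and 7318 bp in gaps in all, with regions up to 678525 bp from its start site. Nav2 (a neuron navigator) had 4 of 40 with 7330 bp, Diaph3 4 of 32 with 5495 bp, Ankrd11 (a chromatin regulator) 4 of 20 with 5008 bp, Dnm3 (a dynamin) 3 of 10 with 5386 bp, and Tnik (a kinase of Wnt signalling) 3 of 16 with 4799 bp. Neighbouring regions can share a piece, as the pair near Diaph3 did with a KO region of 6574 bp and another pair with one of 7419 bp.

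Genes with many or wide regions have more chances of a split one, so lists of genes were read by the share of their regions that were split, beside 3.43% of all regions and beside the share that the widths of the list's own regions would give at the rates of all control regions. Of 13 lists, the interval of the share included 3.43% in 11, and it included the share from widths in all 13. By that measure no list stood apart once width was counted, and the genes below are given for their values. For nuclear receptors and cofactors it was 25 of 463 regions (5.40%, 3.68 to 7.85; 4.33% from widths), at 16 of 36 genes. Rora, an orphan receptor of the clock, had 5 split regions of 55 with 356 to 940 bp in gaps. Rarb lost 1440 and 929 bp in 2 regions, and Ncoa2, a p160 coactivator, lost 2354 bp of 3610 bp (65.2%) in an intron. Ppargc1a, which encodes PGC-1alpha, the coactivator of mitochondrial biogenesis, had 2 split regions, of which the one 27674 bp upstream was 9638 bp wide and lost 812 bp. The other lay 512887 bp from the start site and lost 672 bp. Nrip1 itself had 1 of 21, an intergenic region 157929 bp upstream on chromosome 16 that lost 949 of 4119 bp while its KO pieces measured 8903 and 4790 bp.

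For cardiac transcription factors the share was 16 of 314 regions (5.10%, 3.16 to 8.12, with 4.29% from widths) at 13 of 24 genes. Tead1, the DNA-binding partner of YAP, had 2 intronic regions that lost 1304 and 1195 bp. Foxo3 had 2, of 2274 and 1396 bp, that lost 1386 and 660 bp although the KO pieces were far wider in sum (6626 and 11721 bp). In an intron of Meis1, a homeobox regulator of myocyte cell cycle arrest, 1852 bp were lost, and near Nkx2-5, the homeobox gene whose promoter drives the Cre, 1668 bp of a 9495 bp region 19982 bp upstream.

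In the list of calcium cycling and excitation the share was 15 of 388 (3.87%, 2.36 to 6.28, with 4.55% from widths) at 12 of 32 genes with a region. Besides Gja1, Hcn4 (the pacemaker channel) had 2 of 6 with 1329 and 559 bp in gaps, Camk2d (the main cardiac CaM kinase) lost 1856 bp over 3 pieces, and Adra1a (the alpha-1A adrenergic receptor) lost 1502 bp. The log2 ratio of summed KO width to control width was 0.03 and 0.74 at Hcn4, 0.69 at Camk2d and -0.04 at Adra1a. For sarcomere and Z-disc genes it was 6 of 144 (4.17%, 1.92 to 8.79), the same 4.17% that widths gave. An intronic region of Fhl2, a LIM protein of the Z-disc, lost 1874 of 3095 bp (60.5%), whereas Myoz2, Xirp1 and Ttn lost 503, 393 and 301 bp. At each of these the KO pieces summed to more than the control width, with log2 ratios of 0.47, 1.02, 0.61 and 0.21. A piece also met another control region at each except Ttn. Pde3a, the phosphodiesterase that breaks down cyclic AMP in myocytes, had 3 of 14 with 2899 bp, in a list of adhesion, cytoskeleton and signalling genes with 10 of 370 (2.70%, 1.47 to 4.90, with 4.32% from widths). Others in that list were Akap13 (an anchoring protein) with 1055 and 631 bp, Ank3 (an ankyrin) with 1661 bp and Pde4d with 1107 bp.

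Regions of fuel metabolism genes were wider than most, with a median of 2583 bp for fatty acid uptake and oxidation against 1787 bp for all regions, and the shares split lay within counting error of those from widths. For fatty acid uptake and oxidation there were 3 of 91 (3.30%, 1.13 to 9.25, with 5.76% from widths). Hadh, an enzyme of beta-oxidation, lost 1003 bp of 8065 bp, a region 75957 bp downstream of the start site of Lpl (lipoprotein lipase) 888 bp of 8911 bp, and one at Acacb, which makes the malonyl-CoA that limits fatty acid entry into mitochondria, 622 bp of 6838 bp. In all 3 the KO pieces summed to more than the control width, with log2 ratios of 0.84, 0.52 and 0.48, and in each a piece also met another control region. For triglyceride synthesis and turnover there was 1 of 69 (1.45%, 0.256 to 7.76, with 6.17% from widths), with 1042 bp lost. Its nearest protein-coding start site was that of Lpin1, 378943 bp away, and the log2 width ratio was 0.59. For the respiratory chain and tricarboxylic acid cycle there were 5 of 95 (5.26%, 2.27 to 11.7, with 5.14% from widths), with 921 bp lost at Sdha (the flavoprotein of succinate dehydrogenase), 676 and 303 bp at Suclg2, 508 bp near Fh1 (fumarase) and 106 bp near Idh2. The log2 width ratio was 0.02 at Sdha, 0.39 and -0.20 at Suclg2, 0.68 near Fh1 and 0.26 near Idh2.

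The marker lists of heart cell types had 18 to 94 control regions each, so their shares are known only roughly. Cardiomyocyte markers had 4 of 59 (6.78%, 2.67 to 16.2, with 3.75% from widths). Their gaps were small, with 583 bp in a region 43711 bp upstream of Pln (phospholamban), 301 bp at Ttn, 261 bp at Tnni3 (cardiac troponin I) and 190 bp at Tnnt2. The region at Tnnt2 was only 919 bp wide, the narrowest of all members, and the KO pieces of 5615 and 2168 bp on its sides were the wider ones. Endothelial markers had 5 of 94 (5.32%, 2.29 to 11.9, with 2.75% from widths), with 2028 bp lost in an intron of Pecam1, an endothelial adhesion molecule, and 1020 and 310 bp in introns of Tek, the angiopoietin receptor. The one nearest to Kdr, a VEGF receptor, lay 101857 bp from its start site and lost 525 bp, and that nearest to Cdh5 lost 1437 bp. The log2 width ratio was -0.26 at Pecam1, 0.02 and 0.45 at Tek, 0.84 for Kdr and 1.23 for Cdh5. Fibroblast markers had 1 of 18 (5.56%, with 2.98% from widths), 56884 bp from the start site of Postn (periostin), with 1686 bp. Macrophage markers had 3 of 19 (15.8%, 5.52 to 37.6, with 7.06% from widths), all 3 at 274900 to 518304 bp from Ptprc. Smooth muscle and pericyte markers had 1 of 20 (5.00%, with 2.81% from widths), near Abcc9 (a potassium channel subunit) with 727 bp. Before any split was asked for, the control list held regions nearest to 11 of 12 cardiomyocyte, 9 of 9 endothelial, 5 of 9 fibroblast, 6 of 8 smooth muscle and pericyte and 2 of 8 macrophage markers, and the part of other heart cells in the split regions was not tested.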

How the data were processed

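Reads of 40 bp were aligned by the authors to GRCm38 with Bowtie2 2.4.2, duplicates were removed with SAMtools, and H3K27ac regions were called per replicate against IgG with HOMER 4.11.1 (histone style), then merged and kept where 2 of 3 replicates held them. The deposited lists have a header that does not match their columns, so start and end were taken by position and the number at the end of a region's name was read as its count of merged subpeaks. The score the authors deposited is constant and was not used. Their comparison of tag counts was not used here. Python 3.11.15 with numpy 2.4.6 and scipy 1.17.1 computed overlaps, gaps (the bp between consecutive KO regions within a control region), composition and motif matches from the GRCm38.p6 sequence, and places and nearest start sites from GENCODE M21. Shares have Wilson intervals, rates exact Poisson intervals and medians binomial rank intervals. Reweighting used width bins of 500 bp. The rules were tested on simulated lists. Members, gene lists and motifs were chosen with earlier results of these data known. Genes were named by rule: the 10 regions with most gap bp, most pieces, or most gap bp with a promoter touching a gap. Added to these were genes with 3 or more split regions (10 by gap bp), up to 4 genes per list, and Nrip1. A gene that these rules name is not reported here. Alternatives are listed at the end.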

Additional observations from a re-analysis of the deposited data

How the results depend on the processing

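Of the results recomputed under other settings, the ratio of start sites in gaps to retained pieces stayed under 1 in every setting run, as did that of MEF2. No paired analysis was possible because the lists hold no value per replicate, and for the same reason no replicate could be left out. Requiring at least 50% of each piece inside the region left 1005 control and 1977 KO regions, 868813 gap bp and a log2 width ratio of -0.19. With gaps of at least 500 bp the median gap was 787.5 bp. With gaps of at least 1000 bp there were 417 and 806 regions, 647952 bp, a median of 1322 bp, a log2 ratio of -0.076, a GC difference of -0.80 points, 2.64% at a promoter and a start site ratio of 0.0975. Without a width limit there were 2772 control regions, 2755430 bp, a median of 758.5 bp and a log2 ratio of 0.13. A limit of 5000 bp left 583 and 1045 regions, 430950 bp and a median of 656 bp. Regions whose pieces met no other control region numbered 1124 with 980291 bp and a log2 ratio of -0.16. Thinning both lists to regions with 3 or more subpeaks left 269 and 337 regions and 220492 bp. This setting was chosen after seeing the data, as were counting outside repeats and the central 20%. Thinning gave a log2 ratio of 0.44, a GC difference of -0.81 points and 5.20% at a promoter. The ratios were then 1.45 for ERR, 0.10 for MEF2 and 0.272 for start sites. Promoter limits of 2000 and 500 bp gave 7.23% with a promoter touching a gap and 6.84% at a promoter, and all annotated genes gave 8.46% and 6.78%. Pooled over the lists, 26.7% of genes with a region had a split one by nearest start site and 20.5% by gene bodies extended by 5000 bp. The share over all genes was 10.6% by nearest start site and is not given for gene bodies. Median regions per gene ranged from 2 to 12 over the lists, against 2 for all genes. The cause of these shifts was not tested beyond what each setting removes. Asking for 2 or more subpeaks changed nothing, since every region had them. Read depth, which sets where a caller breaks a region, is unknown here.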
